A study of Mus musculus with 6 samples.

Results

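Aggrecan, versican, the link proteins and hyaluronan build the water-holding aggregates of cartilage. The 10 genes described here are Acan and Vcan (aggrecan and versican), Hapln1, Hapln3 and Hapln4 (link proteins), Has1, Has2 and Has3 (hyaluronan synthases), Cd44 (a hyaluronan receptor) and Prg4 (lubricin). They were chosen by gene symbol, and all 10 were among the 24346 symbols listed. Expression was compared between 3 FP and 3 RR libraries of mouse basilar cartilage, the codes being those in the library titles. The series sets flat against round chondrocytes of the spheno-occipital synchondrosis, a growth cartilage of the cranial base, but no label says which code is which layer, so the codes are kept. Every library came from laser-dissected frozen sections of mice labelled Gli1CreERT2; Tomato flox, given tamoxifen at postnatal day 3. In such mice a Cre recombinase that needs tamoxifen is driven by Gli1, and no group without this allele or treatment was compared. The sources used here state neither the age at collection nor whether libraries came from separate animals, so the p-values measure only the spread between these libraries, which may be technical.

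Aggrecan is a large proteoglycan whose core protein carries many chondroitin sulfate chains. Its N-terminal globular domain binds hyaluronan, and a link protein clamps that contact, so that many aggrecan molecules sit along a single hyaluronan strand. Hyaluronan itself is made at the cell membrane by the Has enzymes from UDP-glucuronic acid and UDP-N-acetylglucosamine, and CD44 can anchor it at the cell surface. Versican is the related lectican of looser and embryonic matrices, and lubricin is the lubricant of the joint surface.

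Levels are in FPKM, which counts fragments per kilobase of transcript and scales them to the library, so levels of different genes can be set side by side per length. Low values fell on steps of 1 fragment, and on a transcript of 2000 bp 1 fragment was worth 0.128 to 0.299 FPKM, so that the deepest library (FP 11) was 2.33 times as deep as the shallowest (RR 14) provided that no scaling between libraries had been applied. The small RNA Rpph1 alone accounted for 23.6% to 41.0% of all FPKM in a library. By level the tissue label held, as Col2a1, the main cartilage collagen, averaged 61637 FPKM in FP and 61231 FPKM in RR. All 10 chondrocyte markers were listed above 0 in every library. The same was true of all 7 skeletal muscle and all 7 nervous tissue markers, so being listed does not tell tissues apart. Of 7 hypertrophic chondrocyte markers 4 were higher and 0 lower in FP than in RR, and of 6 resting zone markers 0 were higher and 6 lower (limma, Benjamini-Hochberg adjusted p under 0.05). Of all genes tested, 0.554% were higher and 0.412% lower. The lists were chosen with earlier results of these data known, so these counts are no independent test of what the codes stand for. In bulk RNA of this kind, fewer cells of a type and less RNA per cell cannot be told apart.

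Acan and Hapln3 are neighbours in the genome. The genes lie tail to tail on mouse chromosome 7, with 2 bases between their GENCODE M21 annotations on mm10 and 0 protein-coding genes between them. Acan runs from 79053483 to 79115099 on the plus strand and Hapln3 from 79115102 to 79131018 on the minus strand. The 250 bases before each RefSeq start are shown because these 2 members, side by side on the chromosome, stood furthest apart in level of any lectican and its neighbouring link protein gene. The RefSeq start of Acan lies upstream of its GENCODE start. Both windows are written 5′ to 3′ on the gene's own strand, from RefSeq on GRCm38.p6, at chr7:79052976-79053225 (plus) for Acan and chr7:79131019-79131268 (minus) for Hapln3. Capitals mark matches to any of 3 motifs, searched on both strands. The GC box motif was GGGCGG. The TATA box motif was written as TATAAA. For the SOX-type core the letters searched were AACAAT.
Acan: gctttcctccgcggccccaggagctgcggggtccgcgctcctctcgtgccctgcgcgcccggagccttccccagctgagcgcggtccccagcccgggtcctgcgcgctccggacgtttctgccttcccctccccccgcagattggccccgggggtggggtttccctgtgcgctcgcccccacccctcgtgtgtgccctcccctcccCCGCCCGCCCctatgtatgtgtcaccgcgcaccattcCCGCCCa
Hapln3: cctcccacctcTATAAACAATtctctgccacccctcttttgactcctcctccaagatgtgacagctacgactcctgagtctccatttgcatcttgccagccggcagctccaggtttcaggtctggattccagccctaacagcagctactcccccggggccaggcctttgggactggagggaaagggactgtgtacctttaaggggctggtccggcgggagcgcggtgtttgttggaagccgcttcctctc
The Acan window was 74.4% G or C, above 95.4% of 32817 promoter windows of the same length, and held 26 CpG dinucleotides. It had 3 GC box matches, of which 2 overlap, and 0 matches to the other motifs. The Hapln3 window was 58.0% G or C with 8 CpG dinucleotides, and held 1 TATA box and 1 SOX-type match that overlap each other, with 0 GC box matches. Among all windows, 32.7% held a GC box match, 12.4% a TATA box match and 9.42% a SOX-type match. The matches describe these letters only. Of the 10 members, 6 had a promoter entry.

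Aggrecan was by far the most abundant member, and the only member whose FP and RR libraries did not overlap. Acan stood at 2078, 1333 and 1859 FPKM in FP libraries 11, 14 and 16, against 976, 588 and 1259 FPKM in RR libraries 11, 14 and 16. No RR library reached the lowest FP library (14), although RR 16 came close to it. It was the 24th to 72nd highest of the 24346 symbols in every library, resting on about 7243 to 59563 fragments. Its mean was 1.87-fold higher in FP, at 1757 ± 383 FPKM in FP and 941 ± 337 FPKM in RR (SD, n = 3 each). The log2 change was 0.94 ± 0.39 (SE), with a 95% confidence interval of 0.051 to 1.84 and an unadjusted limma p of 0.0406, but it did not pass after adjustment over all 14789 genes tested (limma adjusted p = 0.456). Non-overlapping groups with FP above RR were found for 8.74% of all genes tested. With libraries rescaled by the sum of all but the 100 highest genes, the groups still did not overlap and the ratio of means was 1.67, while the median change of all genes shifted to -0.13 (log2). The 8.74% holds for the values as deposited, and the share after rescaling is not given here.

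Other chondrocyte markers were also mostly higher in FP by their estimate. Of the 10 markers, 9 had a log2 change above 0, with a median of 0.79 against 0.017 for all genes tested, and 0 passed the adjusted threshold. Their summed level was 56539 to 101328 FPKM in FP and 47964 to 101103 FPKM in RR, most of it Col2a1. Acan per 100 Col2a1 FPKM came to 5.05, 1.80 and 2.67 in FP libraries 11, 14 and 16. In RR libraries 11, 14 and 16 it came to 2.52, 0.932 and 1.54. FP 14 lay below RR 11, so by this ratio the groups overlapped. Sox9, the transcription factor that drives Acan, averaged 321 FPKM in FP and 153 FPKM in RR (limma adjusted p = 0.216). The part of these markers in the Acan difference was not tested.

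Versican was low beside aggrecan. Vcan stood at 2.41, 2.55 and 2.33 FPKM in FP libraries 11, 14 and 16, against 2.53, 2.995 and 1.42 FPKM in RR libraries 11, 14 and 16. The FP values lay inside the RR range. The log2 change was 0.078 ± 0.31 (SE), with a 95% confidence interval of -0.63 to 0.78 (limma adjusted p = 0.972). Within the lectican family, which also holds Bcan (brevican) and Ncan (neurocan) of nervous tissue, Acan made up 99.1% to 99.8% of the summed FPKM in every library and Vcan 0.112% to 0.505%. Vcan per 100 Acan FPKM came to 0.116, 0.191 and 0.125 in FP libraries 11, 14 and 16, against 0.259, 0.509 and 0.113 in RR libraries 11, 14 and 16. The lowest of these ratios was in RR 16, so the groups overlapped (difference of mean log2 ratios -0.86, exact two-sided permutation p = 0.20 and 0.667 after Benjamini-Hochberg adjustment over 4 ratios, where 3 against 3 can give no p under 0.10). Without RR 14 the difference was -0.41, and without RR 16 it was -1.32.

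The cartilage link protein was the second member in level and varied more between libraries than aggrecan. Hapln1, the link protein that stabilizes aggrecan on hyaluronan, stood at 545, 124 and 194 FPKM in FP libraries 11, 14 and 16, against 259, 60.8 and 131 FPKM in RR libraries 11, 14 and 16. Library 11 was highest and library 14 lowest in both groups. At each number the FP library lay above the RR library, but FP 14 lay below both RR 11 and RR 16, so the groups overlapped. The highest library had 8.97 times the level of the lowest, against 3.53 times for Acan. Hapln1 averaged 288 ± 226 FPKM in FP and 150.3 ± 101 FPKM in RR (SD, n = 3 each), so the ratio of means was 1.91. The log2 change was 0.88 ± 0.64 (SE), with a 95% confidence interval of -0.58 to 2.35 (limma adjusted p = 0.730).

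Relative to Acan, the level of Hapln1 was much the same in FP and RR libraries of equal number. Hapln1 per 100 Acan FPKM was 26.3, 9.31 and 10.4 in FP libraries 11, 14 and 16, against 26.5, 10.3 and 10.4 in RR libraries 11, 14 and 16. Both libraries numbered 11 stood apart from the other 4. The log2 ratio averaged -2.87 ± 0.82 (SD, n = 3) in FP and -2.81 ± 0.78 (SD, n = 3) in RR, a difference of -0.06 (exact two-sided permutation p = 0.50, and 0.667 adjusted over 4 ratios). No label says what the equal numbers stand for.

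**Figure D1:**
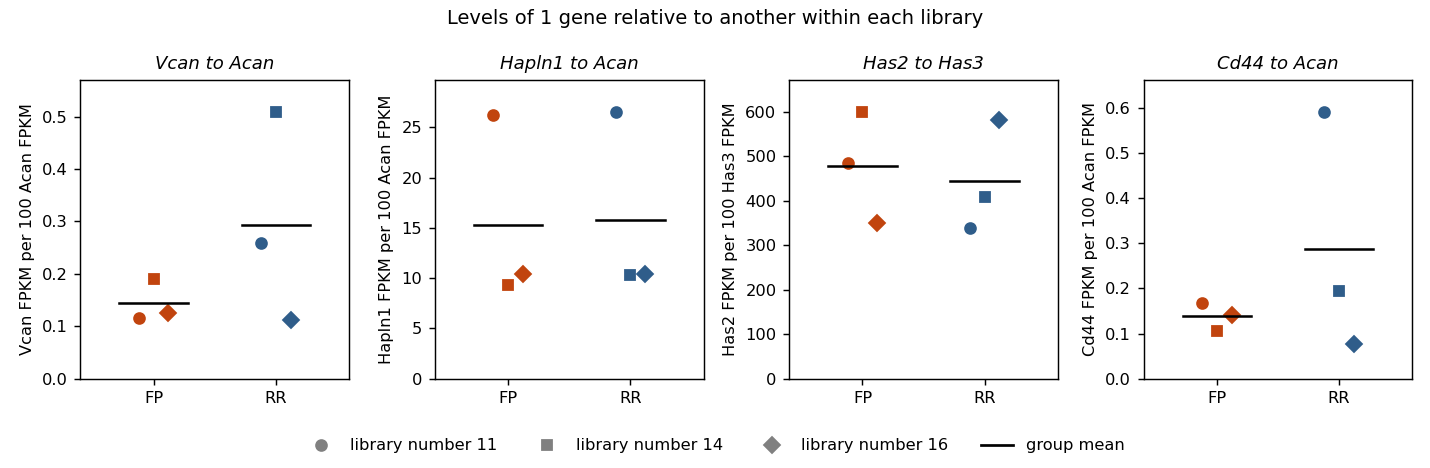
FPKM of 1 member per 100 FPKM of another within each library, with FP left of RR, 1 symbol shape per library number and a line at the group mean. Hapln1 per 100 Acan was 26.3 in FP 11 and 26.5 in RR 11 and lay between 9.31 and 10.4 in the other libraries. All 4 ratios overlapped between the groups.

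The other link proteins were low. Hapln3, a link protein known from vascular smooth muscle, stood at 2.43, 3.35 and 4.63 FPKM in FP libraries 11, 14 and 16, against 4.27, 5.63 and 2.30 FPKM in RR libraries 11, 14 and 16. Its groups overlapped, and its order over the libraries was not that of Acan, its neighbour on the chromosome: FP 11, the highest library for Acan, was among the lowest for Hapln3. The log2 change was -0.15 ± 0.35 (SE), with a 95% confidence interval of -0.94 to 0.64 (limma adjusted p = 0.943). Hapln4, the brain link protein of perineuronal nets, had 0.205, 1.76 and 0.199 FPKM in FP libraries 11, 14 and 16, against 0.416, 0.791 and 0.280 FPKM in RR libraries 11, 14 and 16. It was below the mean of 1 FPKM required for the test, and these levels rest on about 1.93 to 12.7 fragments. The highest was FP 14, and the groups overlapped. Hapln1 made up 88.2% to 99.5% of the summed FPKM of the 4 link protein genes, the lowest share being that of RR 14.

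The lectican and link protein genes sit in pairs on the mouse chromosomes, and in these libraries the members of the high-level pairs did not share their level. Acan averaged 1349 FPKM over the 6 libraries beside Hapln3 at 3.77 FPKM, a 358-fold gap. Vcan and Hapln1, 43659 bases apart on chromosome 13, averaged 2.37 and 219 FPKM, a 92.3-fold gap in the other direction, with the link protein the higher. In the pairs Ncan and Hapln4 (2222 bases apart on chromosome 8) and Bcan and Hapln2 (21519 bases apart on chromosome 3), the averages were 1.28 and 0.609 FPKM, and 1.05 and 0.625 FPKM. Ncan averaged 1.42 ± 0.58 FPKM in FP and 1.15 ± 0.52 FPKM in RR, and Bcan 0.787 ± 0.64 FPKM in FP and 1.32 ± 0.18 FPKM in RR (SD, n = 3 each). Both had groups that overlapped, with limma adjusted p = 0.943 for Ncan and 0.822 for Bcan. Hapln2, the link protein of nodes of Ranvier, was listed at 0, 0 and 0.904 FPKM in FP libraries 11, 14 and 16, against 0.946, 1.73 and 0.170 FPKM in RR libraries 11, 14 and 16. It was not tested. Markers of nervous tissue (7 of 7 listed above 0) summed to 16.8 to 44.0 FPKM in FP and 11.7 to 36.7 FPKM in RR, and their part in the Hapln4, Ncan and Bcan levels was not tested.

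**Figure D2:**
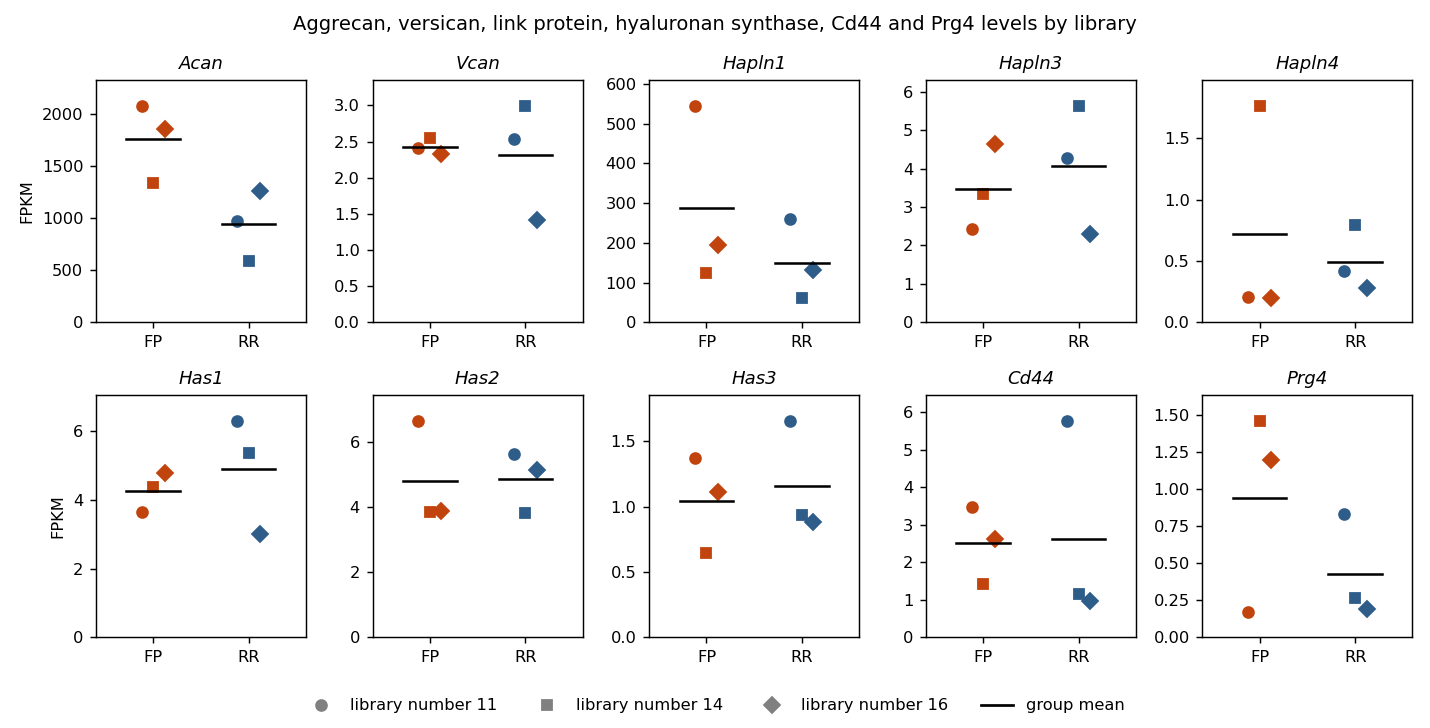
FPKM of the 10 members in each library, each panel with its own linear scale from 0, FP left of RR, 1 symbol shape per library number and a line at the group mean. Only Acan has all 3 FP libraries (1333 to 2078 FPKM) above all 3 RR libraries (588 to 1259 FPKM).

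All 3 hyaluronan synthase genes were expressed at low levels, and none had groups that did not overlap. Has2, the main hyaluronan synthase of skeletal development, stood at 6.67, 3.85 and 3.90 FPKM in FP libraries 11, 14 and 16, against 5.64, 3.83 and 5.14 FPKM in RR libraries 11, 14 and 16. FP 11 was highest, and the other FP values lay within the RR range. Has1 stood at 3.66, 4.36 and 4.79 FPKM in FP libraries 11, 14 and 16, against 6.31, 5.36 and 2.998 FPKM in RR libraries 11, 14 and 16. Its FP values lay inside the RR range. Has3 stood at 1.37, 0.642 and 1.115 FPKM in FP libraries 11, 14 and 16, against 1.66, 0.935 and 0.882 FPKM in RR libraries 11, 14 and 16, close to the limit for testing. Here too the groups overlapped.

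The log2 changes of the synthases were -0.037 ± 0.29 for Has2, -0.12 ± 0.30 for Has1 and -0.077 ± 0.39 for Has3 (SE). Their 95% confidence intervals were -0.71 to 0.63 for Has2, -0.81 to 0.57 for Has1 and -0.97 to 0.82 for Has3. The limma adjusted p was 0.987 for Has2, 0.948 for Has1 and 0.977 for Has3. Has2 made up 37.8% to 57.0% and Has1 31.3% to 53.0% of the summed synthase FPKM, with Has3 at 7.25% to 12.2%. The 3 genes together came to 11.7, 8.86 and 9.80 FPKM in FP libraries 11, 14 and 16, against 13.6, 10.1 and 9.02 FPKM in RR libraries 11, 14 and 16. Has1 or Has2 led, depending on the library: Has2 was above Has1 in 1 of 3 FP libraries and 1 of 3 RR libraries. The ratio of Has2 to Has3 did not separate the groups (difference of mean log2 ratios 0.041, exact two-sided permutation p = 1.0). Exons of Has2 share 182 bases with those of Has2os, and those of Has3 share 352 bases with those of Chtf8, each on the opposite strand. No source used here says whether counting was by strand, so reads of these stretches may not have been separated. Has2os was listed at 4.07 to 4.85 FPKM in FP and 1.88 to 4.95 FPKM in RR, and Chtf8 at 16.1 to 20.8 FPKM in FP and 12.7 to 17.9 FPKM in RR.

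Cd44 was low and highest in 1 RR library. It stood at 3.47, 1.42 and 2.62 FPKM in FP libraries 11, 14 and 16, against 5.77, 1.14 and 0.973 FPKM in RR libraries 11, 14 and 16. RR 11 was highest, the other RR libraries were lowest, and the FP values lay inside the RR range. The log2 change was 0.15 ± 0.51 (SE), with a 95% confidence interval of -1.01 to 1.31 (limma adjusted p = 0.965). CD44 is also abundant on leukocytes and osteoclasts. The 7 osteoclast markers summed to 113, 56.6 and 11.9 FPKM in FP libraries 11, 14 and 16, against 121, 45.7 and 18.05 FPKM in RR libraries 11, 14 and 16, highest in both libraries numbered 11, with Dcstamp and Calcr listed at 0 in at least 1 library. The 8 macrophage and leukocyte markers summed to 24.1, 20.6 and 89.8 FPKM in FP libraries 11, 14 and 16, against 69.4, 25.2 and 26.7 FPKM in RR libraries 11, 14 and 16, with Tyrobp, C1qa and Lyz2 listed at 0 in at least 1 library. Lyz2 alone gave 6.74, 6.96 and 76.4 FPKM of these FP sums, and 41.8, 0 and 11.4 FPKM of the RR sums. The part of the osteoclast and leukocyte markers in the Cd44 level was not tested. Per 100 Acan FPKM, Cd44 came to 0.167, 0.106 and 0.141 in FP libraries 11, 14 and 16, against 0.591, 0.194 and 0.0773 in RR libraries 11, 14 and 16. RR 16 lay below every FP library, so the groups overlapped (difference of mean log2 ratios -0.79, exact two-sided permutation p = 0.40, and 0.667 adjusted over 4 ratios). Without RR 11 the difference was -0.28, and without RR 16 it was -1.35.

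Lubricin was near the limit of detection. Prg4 stood at 0.170, 1.46 and 1.20 FPKM in FP libraries 11, 14 and 16, against 0.833, 0.262 and 0.187 FPKM in RR libraries 11, 14 and 16, which are about 1.87 to 13.6 fragments. FP 14 and FP 16 were highest. FP 11 had the lowest FPKM, but it rests on about 2.82 fragments, against 1.87 in RR 14 and 2.27 in RR 16. The order of these low libraries is therefore not resolved, and Prg4 was below the mean of 1 FPKM required for the test. Its exons share 204 bases with those of Tpr, a nuclear pore gene on the opposite strand listed at 25.2 to 39.7 FPKM in FP and 19.0 to 30.2 FPKM in RR. The superficial zone and synovium markers fixed for this tissue were Clu, Creb5, Erg, Gdf5, Abi3bp, Cilp and Thbs4, the last listed at 0 in RR 16. These 7 summed to 15.8, 28.4 and 15.3 FPKM in FP libraries 11, 14 and 16, against 47.9, 96.6 and 59.4 FPKM in RR libraries 11, 14 and 16, so each FP sum lay below each RR sum. Clu alone gave 24.9, 69.8 and 30.6 FPKM of the RR sums, and 2 of the 7 markers, Erg and Thbs4, had estimates above 0. Their part in the Prg4 level was not tested. Of these 7, 1 was lower in FP and 0 higher, where 0.412% of all genes tested were lower and 0.554% higher. Gdf5, a growth factor of joint formation, averaged 0.881 FPKM in FP and 10.7 FPKM in RR (limma adjusted p = 0.0395).

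Ordered by mean level, the members ran Acan, Hapln1, Has2, Has1, Hapln3, Cd44, Vcan, Has3, Prg4 and Hapln4 in FP libraries, and Acan, Hapln1, Has1, Has2, Hapln3, Cd44, Vcan, Has3, Hapln4 and Prg4 in RR libraries. The first steps were wide: Acan lay above Hapln1 by 1.93 to 3.41 on the log2(FPKM + 1) scale within FP libraries and by 1.91 to 3.26 within RR libraries, and Hapln1 above the third gene by 4.69 to 6.15 in FP and by 3.28 to 5.15 in RR. Below them, the neighbours Has1 and Has2, Hapln3 and Cd44, Cd44 and Vcan, and Prg4 and Hapln4 changed places between libraries of the same group and did not differ beyond their spread. The same held for Has3 and Prg4 in FP and for Has2 and Hapln3 in RR. Vcan lay above Has3 in every library.

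In all, 8 of the 10 members had a mean of at least 1 FPKM and were tested, and 0 passed the adjusted threshold in limma, against 0.967% of the 14789 genes tested (0.554% higher in FP and 0.412% lower). At an unadjusted p under 0.05 the count was 1 of 8, Acan, against 10.3% of all genes. The median log2 change of the 8 was 0.021, with 4 estimates above and 4 below 0, beside a median of 0.017 over all genes. Fits that left out each library, changed the scaling, the pseudocount or the filter, or dropped the intensity trend also called 0 members.

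**Figure D3:**
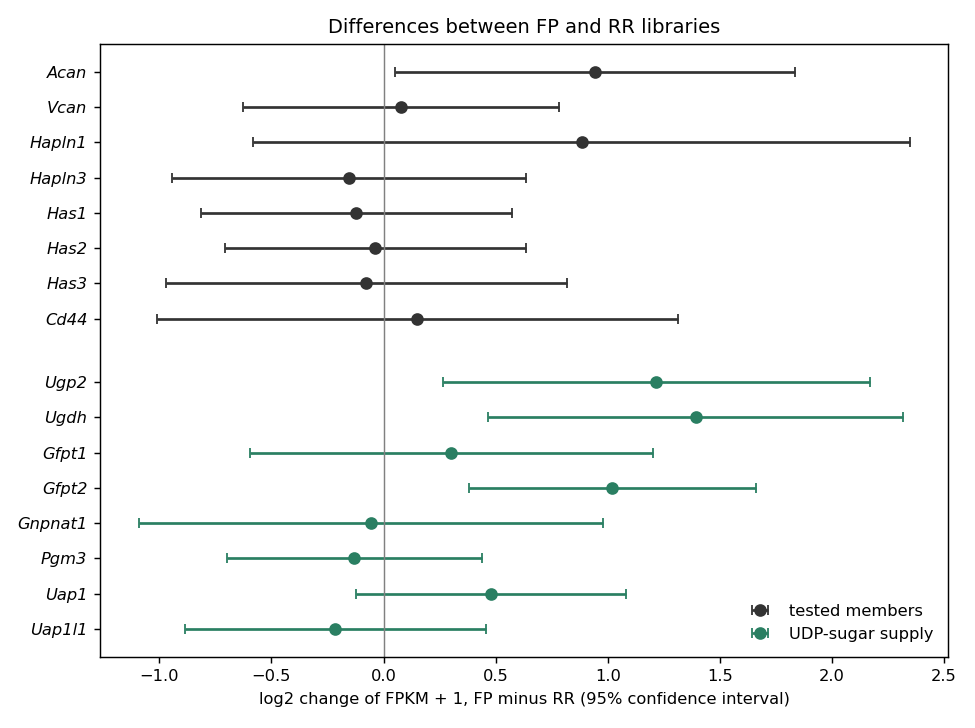
Log2 change of FPKM + 1 (FP minus RR) with its 95% confidence interval from the limma fit, for the 8 tested members and the 8 genes of UDP-sugar supply. The interval of Acan (0.051 to 1.84) and those of Ugp2, Ugdh and Gfpt2 lie above 0, and the intervals of the other 7 members include 0.

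The genes that supply the sugar precursors of hyaluronan and chondroitin had estimates in both directions, 5 of 8 above 0 and 3 below, with a median log2 change of 0.39. Of the 8, 0 passed the adjusted threshold in limma. An unadjusted p under 0.05 was reached by 3, where 10.3% of all genes reached it, and 4 had FP libraries above all RR libraries, where 8.74% of all genes did. The list was chosen with earlier results of these data known, so these counts are no independent test. Skeletal muscle markers also had estimates above 0, in 7 of 7 (median log2 change 1.51, 2 with an unadjusted p under 0.05 and 0 past the adjusted threshold in limma), all 7 being listed above 0 in every library. Their summed level was 151, 114 and 186 FPKM in FP libraries 11, 14 and 16, against 159, 30.1 and 38.1 FPKM in RR libraries 11, 14 and 16, and their part in the levels of the sugar-supply genes was not tested. Ugdh, which oxidizes UDP-glucose to UDP-glucuronic acid, stood at 54.4, 22.5 and 33.1 FPKM in FP libraries 11, 14 and 16, against 19.4, 8.10 and 12.2 FPKM in RR libraries 11, 14 and 16. The ratio of its means was 2.77, with a log2 change of 1.39 ± 0.41 (SE, 95% confidence interval 0.47 to 2.32, limma adjusted p = 0.235).

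Gfpt2, which with Gfpt1 catalyses the first step towards UDP-N-acetylglucosamine, stood at 51.3, 32.4 and 32.1 FPKM in FP libraries 11, 14 and 16, against 17.4, 16.3 and 20.8 FPKM in RR libraries 11, 14 and 16. The lowest FP library was well above the highest RR library (log2 change 1.021 ± 0.28, limma adjusted p = 0.203). Gfpt1 itself averaged 24.5 ± 9.0 FPKM in FP and 20.3 ± 9.5 FPKM in RR and overlapped (limma adjusted p = 0.869). Ugp2, which makes UDP-glucose, and Uap1, which makes UDP-N-acetylglucosamine, were the other 2 with groups apart and are named after their values were seen. Ugp2 averaged 9.45 ± 5.54 FPKM in FP and 3.33 ± 1.63 FPKM in RR (SD, n = 3 each, limma adjusted p = 0.333). Uap1 averaged 13.7 ± 2.8 FPKM in FP and 9.51 ± 1.49 FPKM in RR (limma adjusted p = 0.624), and its groups overlapped once libraries were rescaled without the 100 highest genes. The 3 genes with an unadjusted p under 0.05, Ugdh, Gfpt2 and Ugp2, stayed apart after that rescaling. Pgm3, an enzyme on the way to UDP-N-acetylglucosamine and also named after its values were seen, overlapped as deposited, but after rescaling it lay at 7.64 to 9.31 FPKM in FP, below 9.41 to 11.1 FPKM in RR. Rescaling shifted the median change of all genes to -0.13 (log2), and the share of all genes with groups apart after it is not given here.

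**Figure D4:**
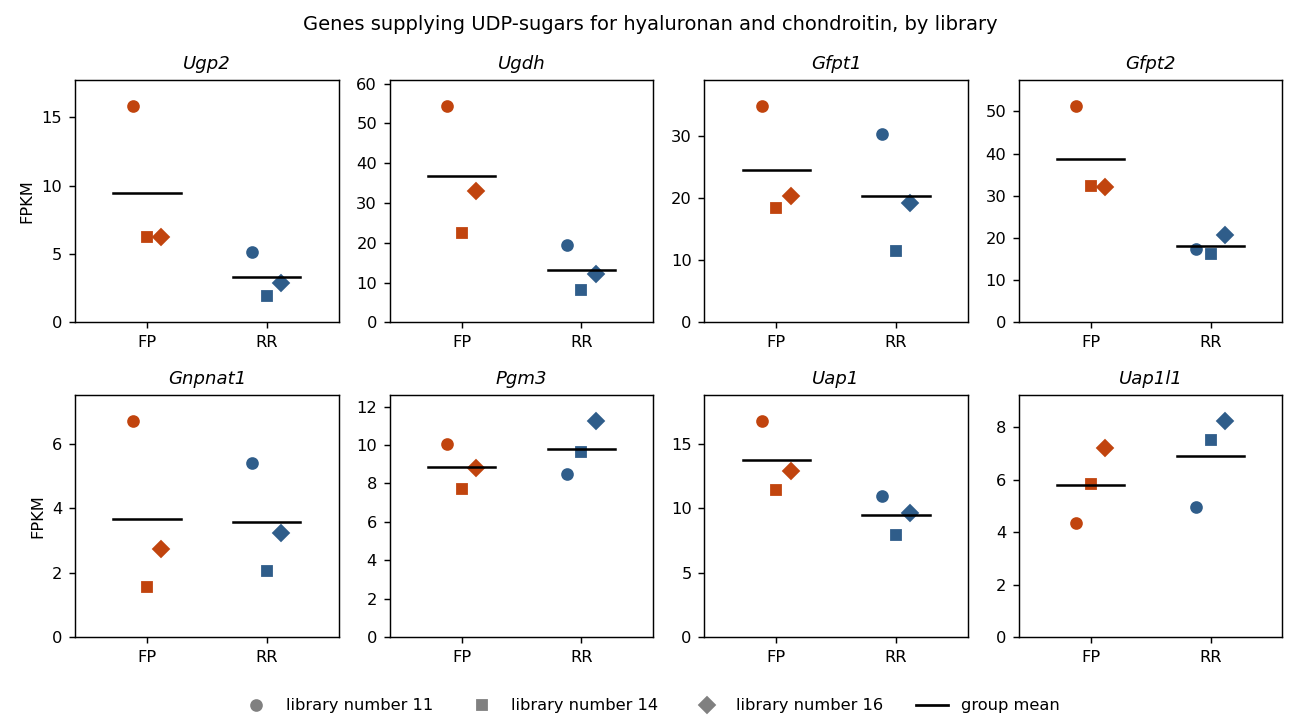
FPKM of the 8 genes of UDP-sugar supply in each library, each panel with its own linear scale from 0, FP left of RR, 1 symbol shape per library number and a line at the group mean. Ugdh (22.5 to 54.4 FPKM in FP, 8.10 to 19.4 FPKM in RR), Gfpt2, Ugp2 and Uap1 have FP libraries above all RR libraries, and the other 4 overlap.

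Of 12 genes that build the chondroitin chain on its core protein, 0 passed the adjusted threshold in limma. An unadjusted p under 0.05 was reached by 1 of the 12, where 10.3% of all genes did, and 9 had estimates above 0, where 51.6% of all genes did (median log2 change 0.31). The highest was Xylt1, which adds the first xylose, at 226 ± 60 FPKM in FP and 177 ± 68 FPKM in RR (SD, n = 3 each, limma adjusted p = 0.822). Chpf2 and Chpf, chondroitin polymerizing factors, averaged 31.8 ± 8.1 and 25.9 ± 8.0 FPKM in FP, and 24.1 ± 8.3 and 21.5 ± 4.8 FPKM in RR (limma adjusted p = 0.772 and 0.866). Groups with FP above RR were found for 4 of the 12, against 8.74% of all genes. These were B3galt6, B3gat3, Fam20b and Chsy3, named after their values were seen, and after rescaling Fam20b alone kept its groups apart. No share of all genes after rescaling is given beside this. The chondroitin list too was chosen with earlier results of these data known, so its counts are no independent test. Fam20b, a xylose kinase of the linker, averaged 25.7 ± 4.8 FPKM in FP and 14.6 ± 4.2 FPKM in RR (limma adjusted p = 0.398).

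Genes of hyaluronan turnover and binding showed no call either. Of 9 hyaluronan-degrading enzymes 4 were tested, and 0 passed either the adjusted or the unadjusted threshold (limma). Cemip, a hyaluronan-degrading protein, led with 17.6, 21.7 and 23.2 FPKM in FP libraries 11, 14 and 16, against 25.3, 18.6 and 31.7 FPKM in RR libraries 11, 14 and 16, with groups that overlapped (limma adjusted p = 0.850). Tmem2, a cell-surface hyaluronidase, averaged 8.31 ± 0.92 FPKM in FP and 7.51 ± 1.61 FPKM in RR (limma adjusted p = 0.925), and Hyal2, a membrane-anchored hyaluronidase, 7.72 ± 1.74 FPKM in FP and 10.5 ± 2.8 FPKM in RR (limma adjusted p = 0.743). The summed level of this list was 38.3 to 42.4 FPKM in FP and 39.5 to 59.0 FPKM in RR.

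Of 14 other hyaluronan-binding proteins 8 were tested, and 0 passed either threshold (limma). Susd5, a sushi-domain membrane protein, was the highest of them at 178, 91.7 and 133 FPKM in FP libraries 11, 14 and 16, against 188, 90.8 and 177 FPKM in RR libraries 11, 14 and 16. Its level was of the order of that of Hapln1, and its groups overlapped (limma adjusted p = 0.947). Ptx3, a pentraxin that helps to organize hyaluronan matrices, was the only tested gene of this list with groups apart, at 8.98, 7.19 and 6.23 FPKM in FP libraries 11, 14 and 16, against 11.6, 10.2 and 10.98 FPKM in RR libraries 11, 14 and 16 (log2 change -0.51 ± 0.25, limma adjusted p = 0.558). Groups with FP below RR were found for 7.28% of all genes tested. Hmmr, a hyaluronan-binding protein of the mitotic spindle, averaged 4.75 ± 1.95 FPKM in FP and 2.95 ± 0.93 FPKM in RR (limma adjusted p = 0.70).

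Of 7 proteases that cleave lecticans 2 were tested, and 0 passed the adjusted threshold. Adamts1 stood at 7.29, 6.94 and 3.86 FPKM in FP libraries 11, 14 and 16, against 1.87, 3.30 and 2.76 FPKM in RR libraries 11, 14 and 16. The groups did not overlap as deposited but did after rescaling, and the unadjusted limma p was 0.0173 (adjusted p = 0.326). Of all genes tested, 8.74% had FP above RR as deposited and 10.3% an unadjusted p under 0.05. Adamts9 averaged 5.91 ± 0.75 FPKM in FP and 8.56 ± 2.07 FPKM in RR (limma adjusted p = 0.669). Its groups overlapped as deposited, but after rescaling it lay at 5.12 to 6.19 FPKM in FP, below 7.15 to 10.3 FPKM in RR. Rescaling shifted the median change of all genes to -0.13 (log2), and no share of all genes after it is given beside these 2 genes. The main aggrecanases of cartilage were low: Adamts4 was at 0.264 to 1.06 FPKM in FP and 0.808 to 1.998 FPKM in RR, and Adamts5 at 0.409 to 0.638 FPKM in FP and 0.558 to 1.28 FPKM in RR, and neither was tested (Adamts5 is named after its values were seen).

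The genes whose values ran most like those of Acan over the 6 libraries were Dph5, Sec23b and Hist2h2ac, with mean absolute differences of 0.071, 0.085 and 0.091 between centred log2(FPKM + 1) values, among 4956 candidates. Those most like Hapln1 were Slirp (0.070), Spcs1 (0.20) and Hist2h2bb (0.21). Hapln1 stood 3234th in likeness to Acan and Acan 1120th in likeness to Hapln1, with a difference of 0.61. This likeness is a description over 6 libraries of 2 groups.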

How the data were processed

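The 6 RNA-seq libraries (3 FP, 3 RR) were made with a SMARTer stranded kit for very small inputs, per the labels. The values deposited by the authors are FPKM, per the file headers, 1 file per library. TopHat2 2.1.1, Bowtie2 2.2.8, SAMtools 0.1.18, Cuffdiff 2.2.1 and build mm10 are named in the submitters' processing notes. Which annotation was counted, whether strand was used and how libraries were scaled is not given in the sources used. Total fragment numbers are unknown. The FPKM worth of 1 fragment was read from genes that have 1 basic transcript (GENCODE M21, length 1500 to 3000 bp), where 69.6% to 72.7% of low values were whole within 0.1 fragments (20% by chance), and fragments behind a member assume its longest basic transcript.

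The values were taken as log2(FPKM + 1) and fitted in R 4.3.3 with limma 3.58.1, using an intensity trend and two-sided tests of FP minus RR. Genes averaging 1 FPKM or more entered, 14789 in all, and p-values were Benjamini-Hochberg adjusted over all of them (threshold 0.05). Changes on this scale understate those of low genes, and folds are ratios of mean FPKM. Ratios within libraries used a pseudocount of 1 and exact permutation tests.

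The members and lists were chosen with earlier results of these data known. All members are named. Of each other list, every gene past the threshold and up to 3 more with the highest mean are named, and others were chosen after their values were seen. Genes most like Acan and Hapln1 were sought among genes averaging 5 FPKM or more with an SD of 0.3 or more on the log2 scale, without small RNA, Gm and Rik names.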

Additional observations from a re-analysis of the deposited data

How the results depend on the processing

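The fit was repeated with 14 alternatives, and 0 of the tested members passed the threshold in each of them. The log2 change of Acan ranged from 0.64 to 1.19 and that of Hapln1 from 0.28 to 1.39, above 0 in every alternative, with adjusted p no lower than 0.104 for Acan and 0.091 for Hapln1. The other tested members had estimates near 0 that changed sign. When 1 library was left out at a time, they ran from -0.17 to 0.72 for Cd44, from -0.43 to 0.070 for Hapln3, from -0.38 to 0.057 for Has1, from -0.26 to 0.076 for Has2, from -0.19 to 0.072 for Has3 and from -0.13 to 0.23 for Vcan. Without both libraries numbered 14 the estimates were 0.076 for Hapln3 and 0.0023 for Has3, after quantile normalization 0.097 for Has3, and after rescaling -0.054 for Vcan. Left out 1 library at a time, the difference in log2 ratio ran from -0.53 to 0.39 for Hapln1 to Acan, from -1.32 to -0.41 for Vcan to Acan, from -1.35 to -0.28 for Cd44 to Acan and from -0.061 to 0.18 for Has2 to Has3, and the Has2 to Has3 difference was -0.061 without both libraries numbered 14. The cause was not tested. A filter at a mean of 5 FPKM leaves only Acan and Hapln1 of the members in the test. Of all genes, 143 passed (82 higher, 61 lower), but 83 without an intensity trend, 42 (without FP 16) to 85 (without FP 11) with 1 library left out, and 8 without both libraries numbered 14, where fewer libraries enter the fit. Rescaling turned the split of calls to 73 higher and 84 lower.

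Same-numbered libraries correlated in their deviations from the group means at 0.32 (number 11), 0.18 (number 14) and 0.089 (number 16). Libraries of different number correlated at -0.22 to 0.046, and all 6 correlated best with their own number. As the third is not above 0.1, the main fit does not pair libraries by number. That limit does not settle whether the numbers pair them, and no label says so. With the number as a replicate block 271 genes passed, 0 of them members, and 1 gene of the fixed lists, Ugdh (log2 change 1.39, adjusted p = 0.0196). In that fit 2 members, Acan and Hapln1, had an unadjusted limma p under 0.05, at 0.0039 and 0.0030 (adjusted p = 0.104 and 0.091). Their SE was 0.21 and 0.19 with the block, against 0.39 and 0.64 in the main fit. Depth limits Hapln4, Prg4 and Hapln2, which rest on a few fragments. It also limits Has3, at about 7.46 (FP 14) to 31.6 (FP 11) fragments, and Cd44, at about 10.7 (RR 14) to 83.2 (RR 11).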
